A study of Mus musculus with 18 samples.

Results

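Bulk RNA sequencing libraries of cPLA_2_ WT dendritic cells (DCs) pressed to 3 µm were set against libraries of DCs treated with lipopolysaccharide (LPS), a component of bacterial cell walls. The 3 confined libraries were compared with all 6 LPS libraries, of which 3 are labelled cPLA_2_ WT and 3 cPLA_2_ KO, taken as a pool. The comparison addresses what separates activation by deformation of the cell from maturation by a microbial product. Genes entered by 1 rule, a level of 10 normalized counts or more in 3 or more libraries of the study, which 17875 of the 62197 genes in the table met. The comparison itself used 9 of the 18 libraries. Of the genes included, 13986 carry a symbol and 3889 do not, and 1305 met the rule only through libraries outside these 9.

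All cells were grown from mouse bone marrow for 10 days in medium with granulocyte-macrophage colony-stimulating factor from J558 cells. According to the Methods, the marrow came from mice aged 6 to 8 weeks, and breeder mice had been backcrossed to C57BL/6 for 7 generations. For experiments in general, the Methods give an age range that starts at 8 weeks and name male or female mice. The confined cells carried wild-type alleles of *Pla2g4a*, which encodes the cytosolic phospholipase cPLA_2_, and were collected 4 h after confinement. The LPS-treated cells were not confined. They received 100 ng/ml LPS for 30 min by their labels (25 min in the Methods), were washed, and were recovered on the next day. The cPLA_2_ KO mice carry a floxed *Pla2g4a* that *Itgax*-driven Cre deletes, so the loss depends on how far a cell expresses *Itgax*. Nonconfined cPLA_2_ WT cells, taken directly at the end of culture, give the level before either treatment and are quoted beside the values. The Methods state that granulocytes and macrophages also arise in this culture and that the semiadherent cells were kept. They describe nonadherent granulocytes as lost on the way and macrophages as staying attached to the plate. By the Methods, the great majority of cells recovered with this protocol carry CD11c and MHC class II. How many granulocytes or macrophages remained is not given. Stimulus, time of collection (4 h against the next day) and handling differ together between the groups and cannot be told apart. Genotype labels differ with them, since all confined libraries are labelled cPLA_2_ WT and 3 of the 6 LPS libraries cPLA_2_ KO. *Ddx3y*, a gene of the Y chromosome, is nearly absent from the confined libraries and higher in 4 of the 6 LPS libraries. The sex of the mice behind each library is not given and may differ between the groups. The pooled comparison cannot tell genotype or sex apart from the stimulus. The labels name 2 library kits without saying which library was made with which.

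Values are normalized counts, which are the reads on a gene divided by a library's size factor and not scaled by gene length. They are therefore compared between libraries; between genes they rank and sum reads, and longer genes weigh more. The 9 libraries held 33592725 to 61300021 reads on genes, with a median of 45160523. Fold changes were computed on log2(normalized count + 1) as confined minus LPS with limma, and a gene was called at an adjusted p below 0.05 with a log2 fold change beyond 1 in either direction. The study calls its RNA sequencing samples biological replicates, but neither it nor the labels say whether libraries of a group come from separate mice or cultures, so the p-values measure the spread between these libraries only.

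The genotype labels of the LPS libraries are not borne out by the genes that part the genotypes elsewhere in the study. *Ddx3y*, a gene of the Y chromosome, averaged 935 normalized counts in nonconfined cPLA_2_ KO libraries, 1.67 in nonconfined cPLA_2_ WT libraries and 1.36 in the confined libraries. In the LPS libraries it stood at 1271, 0 and 662 in those labelled cPLA_2_ WT (replicates 1 to 3) and at 2.12, 1476 and 783 in those labelled cPLA_2_ KO. High, intermediate and near-absent levels thus occurred under both labels. *Acot1*, which encodes an acyl-CoA thioesterase, averaged 418 normalized counts in nonconfined cPLA_2_ KO and 1.6 in nonconfined cPLA_2_ WT libraries, and followed *Ddx3y* in the LPS libraries, at 54.9, 0.915 and 33.6 under the first label and at 0, 49.2 and 40.7 under the second. *Pla2g4a* itself stood between 967 and 1065 in all 6. Between the LPS groups as labelled, limma called 0 genes, with 890 genes at an unadjusted p under 0.05 and 0 at an adjusted p under 0.05. Between the 2 LPS libraries nearly without *Ddx3y* and the 4 with more, a split chosen after the values were seen, 118 genes were called. The pool does not depend on either label, but its 6 libraries may not be 6 independent samples, and the Y-chromosome genes *Ddx3y*, *Eif2s3y*, *Kdm5d* and *Uty* are among the genes counted as lower in confined cells although LPS and confined libraries overlap. With the libraries averaged in 3 pairs across labels that share their level of *Ddx3y*, the comparison gave 1205 higher and 1316 lower genes. This alternative was chosen after the values were seen, as was the next. With only the 2 LPS libraries nearly without *Ddx3y*, the comparison gave 1083 and 1253. Of the 1245 higher and 1402 lower genes of the pooled comparison, 859 and 1116 were also called against those 2 libraries. Against those 2, *Ccr2*, *Ccrl2*, *Cysltr2*, *Itgb5*, *Mmp2*, *Mmp9*, *S100a9* and *Timp1*, which are called in the comparison and named in the text, fell short of the fold threshold. The LPS libraries labelled cPLA_2_ WT alone gave 1130 and 1342, and those labelled cPLA_2_ KO alone 1210 and 1339.

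Genes that define DCs were present in both groups. *Cd74*, the invariant chain of MHC class II, stood at 216457, 201619 and 207944 normalized counts in the confined libraries and at 293489 to 336000 in the LPS libraries, and *Itgax*, which encodes CD11c, averaged 4626 and 6953. Of the 11 DC markers tested, 1 was higher (*Cd209a*) and 3 were lower in confined cells (*Flt3*, *Zbtb46* and *Dpp4*; 2 lower with the same total per library), and none was at 0 in the 9 libraries. Without confined replicate 1, *Cd209a* was at 0.96 and 0 were higher; it was at 0.98 against the LPS_WT libraries only and with 5 in place of 1 added to each count. The macrophage markers *Cd163*, *Cd5l* and *Timd4* were below the rule on low values, while *Csf1r* and *Cd68* were abundant in every library.

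DCs sense microbial products through Toll-like receptors, which act through NF-kB and interferon regulatory factors and turn on cytokines, chemokines, co-stimulatory ligands and an interferon response. Maturing DCs gain the chemokine receptor CCR7, which guides them to lymph nodes. Strong confinement deforms the nucleus, and cPLA_2_ is known to bind the stretched nuclear envelope and to release arachidonic acid, the precursor of prostaglandins.

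Confined cells had less mRNA than LPS-treated cells for 8 of 11 T cell-polarizing cytokines, 10 of 15 CC chemokines, 38 of 59 interferon-stimulated genes and 17 of 27 glycolysis and hypoxia targets (6, 10, 19 and 10 with the same total per library), and more for single genes such as *Areg*, *Crem*, *Chac1* and *Lmna*. Of the 17875 genes, 1245 were higher (6.97%) and 1402 lower (7.84%) in confined cells, and 987 of the former and 1229 of the latter showed no overlap between the 3 confined and the 6 LPS libraries. The call itself favours such separation, and the share without overlap over all genes was not computed. These counts therefore add no support to the calls. By adjusted p alone, 4383 genes (24.5%) were higher and 5318 (29.8%) lower. Over all genes the log2 fold change had a median of -0.01, with a median standard error of 0.11. Changes above 4 on the log2 scale numbered 18 among the higher and 48 among the lower genes. Of the genes called, 405 higher and 226 lower ones carry no symbol.

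The total of normalized counts per library was 39890269 ± 697914 (SD, n = 3) in confined and 48720243 ± 669355 (SD, n = 6) in LPS libraries, a difference present in every library (two-sided exact permutation p = 0.0238, the smallest that 84 splits allow). Scaling each library to the same total moved the median gene by 0.29, from -0.01 to 0.27, and gave 2118 higher and 956 lower genes, so that the share of higher genes among the calls was 68.9% in place of 47%. All 1245 higher genes kept their call under that scaling, 956 of the 1402 lower genes kept theirs, and 0 changed sides. As the scaling raised log2 fold changes by about 0.29, higher genes could hardly lose their call and lower genes could hardly change sides. That they did not is therefore no sign of robustness. Of the 134 called genes named in the text, 24, all lower in confined cells, fell short of the fold threshold under it, with log2 fold changes of -0.99 to -0.72: *Abcg1*, *Bcl2a1b*, *Bcl2a1d*, *Bcl2l1*, *Ccrl2*, *Cflar*, *Cpa3*, *Ebi3*, *Hspa8*, *Ikbke*, *Il15*, *Il1b*, *Irak3*, *Mmp2*, *Mmp9*, *Nlrc5*, *Nos2*, *Psme2*, *Ptgs2*, *S100a9*, *Stat5a*, *Tcf4*, *Ticam2* and *Zbtb46*. With edgeR, 7 of the 134 fell short of it (*Bcl2a1b*, *Ccr2*, *Ebi3*, *Hspa8*, *Ptgs2*, *S100a9* and *Stat5a*), with DESeq2 5 of these (all but *Bcl2a1b* and *Ebi3*) and with trimmed-mean (TMM) scaling 3 (*Hspa8*, *S100a9* and *Stat5a*).

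Group means were placed above or below those of the nonconfined cells, with no test. The nonconfined cPLA_2_ WT libraries held 33981771 to 34304766 normalized counts, fewer than the libraries of either group. The positions were not recomputed with the same total per library, so their counts may depend on scaling. LPS cells were also washed and kept to the next day, so nonconfined cells are not matched to them in time or handling. Positions therefore do not separate LPS from time in culture. Of the 1245 higher genes, 470 had a confined mean more than 1 log2 unit above the nonconfined cPLA_2_ WT mean. A further 476 had a confined mean within 1 unit of the nonconfined cells and an LPS mean more than 1 unit below them. Of the 1402 lower genes, 930 had an LPS mean more than 1 unit above the nonconfined mean. In 313 of these, confined cells were above the nonconfined cells by more than 1 unit too, in 563 they were within 1 unit of them, and in 54 they were more than 1 unit below them.

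**Figure D1:**
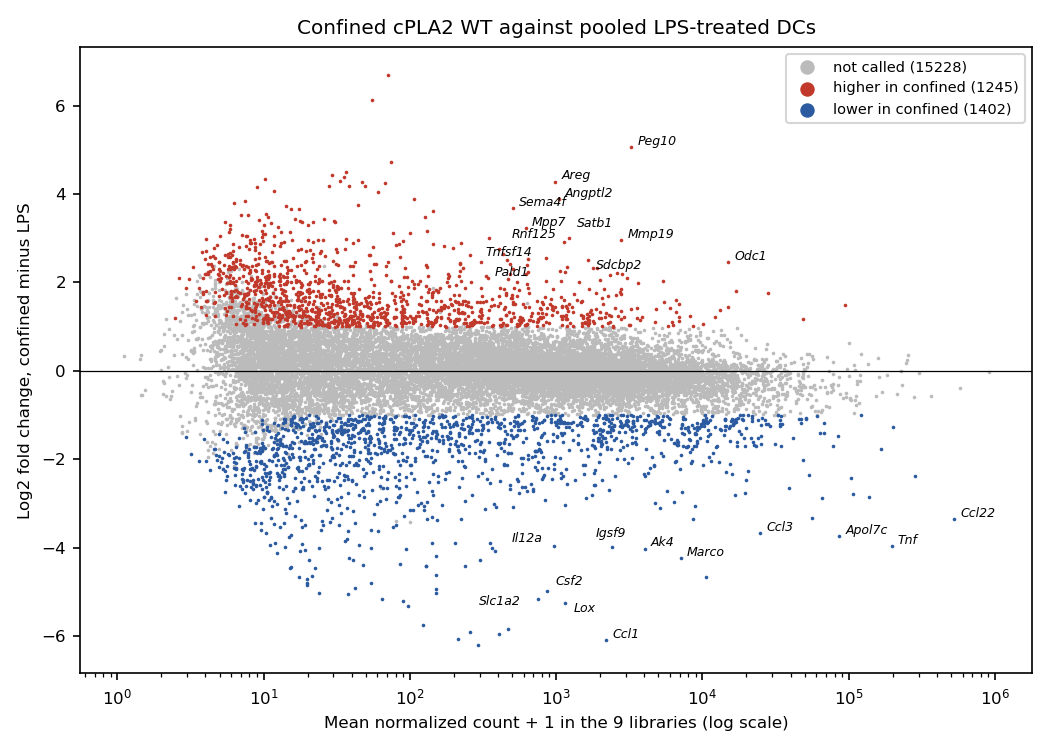
Log2 fold change (confined minus LPS, vertical axis) of the 17875 genes against their mean normalized count in the 9 libraries (horizontal axis, log scale); coloured points are the 1245 genes called higher and the 1402 called lower, grey points are the others. The 12 genes with the largest change in each direction among abundant genes with a symbol and without overlap are named.

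Among genes with a symbol that averaged 500 normalized counts or more and kept the groups apart in every library, the 12 highest above LPS cells were *Peg10*, *Areg*, *Angptl2*, *Sema4f*, *Mpp7*, *Satb1*, *Mmp19*, *Rnf125*, *Tnfsf14*, *Pald1*, *Sdcbp2* and *Odc1*, with log2 fold changes from 5.06 down to 2.45. *Peg10* (GSMG0043790, chromosome 6 of GRCm39 from 4747306 to 4760514, plus strand), an imprinted gene of retrotransposon origin, stood at 9099, 9109 and 9375 normalized counts in the confined libraries. The 6 LPS libraries ranged from 169 to 368 with a median of 310, and nonconfined cells averaged 8.62. Confined cells were thus 32.3-fold above LPS cells (standard error 0.29 on a log2 fold change of 5.06, adjusted p = 2.8e-12), without overlap. *Areg* (GSMG0040544, chromosome 5 of GRCm39 from 91287458 to 91296291, plus strand) encodes amphiregulin, a ligand of the epidermal growth factor receptor. It stood at 2726, 2675 and 2651 in confined libraries and at 107 to 159, median 144, in LPS libraries, a 19.4-fold difference (log2 fold change 4.28 with a standard error of 0.26, adjusted p = 6.52e-12), beside 3.45 in nonconfined cells. Both genes were far above nonconfined cells in every confined library and were also above them, to a smaller degree, in the LPS libraries.

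A different position was taken by *Angptl2* (GSMG0029180, chromosome 2 of GRCm39 from 33105972 to 33137726, plus strand), which encodes a secreted angiopoietin-like protein. Confined libraries held 2756, 2602 and 2851 normalized counts and LPS libraries 143 to 251, median 175, 3.89 on the log2 scale (with a standard error of 0.12 and adjusted p = 9.82e-17), while nonconfined cells averaged 2416. The confined level was close to that of untreated cells, and the LPS libraries were the low ones. *Pald1*, a gene for a phosphatase-like protein, was placed likewise, with 1396, 1423 and 1429 in confined, 184 to 309 in LPS and a mean of 2214 in nonconfined libraries. For *Sema4f*, a membrane-bound semaphorin, and *Satb1*, a chromatin organizer, it was the confined libraries that stood out. *Satb1* stood at 3030, 2809 and 2882 in confined libraries, 254 to 475 in LPS libraries and a mean of 158 in nonconfined cells. *Sdcbp2*, which encodes a PDZ-domain scaffold protein, stood at 3625, 3634 and 3703, at 626 to 685 and at a mean of 22.8 in the same order, so that LPS cells were between the other groups. *Odc1*, the rate-limiting enzyme of polyamine synthesis, held 33980, 31481 and 32962 normalized counts in confined libraries against 5286 to 6985 in LPS libraries and 5436 on average in nonconfined cells, a log2 fold change of 2.45. In that gene LPS and nonconfined cells were near each other and the confined libraries were 5.42-fold above the LPS mean. *Mmp19*, a matrix metalloproteinase, had the same order, with 6732, 6518 and 6690 in confined libraries, 791 to 902 in LPS libraries and 749 on average in nonconfined cells.

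**Figure D2:**
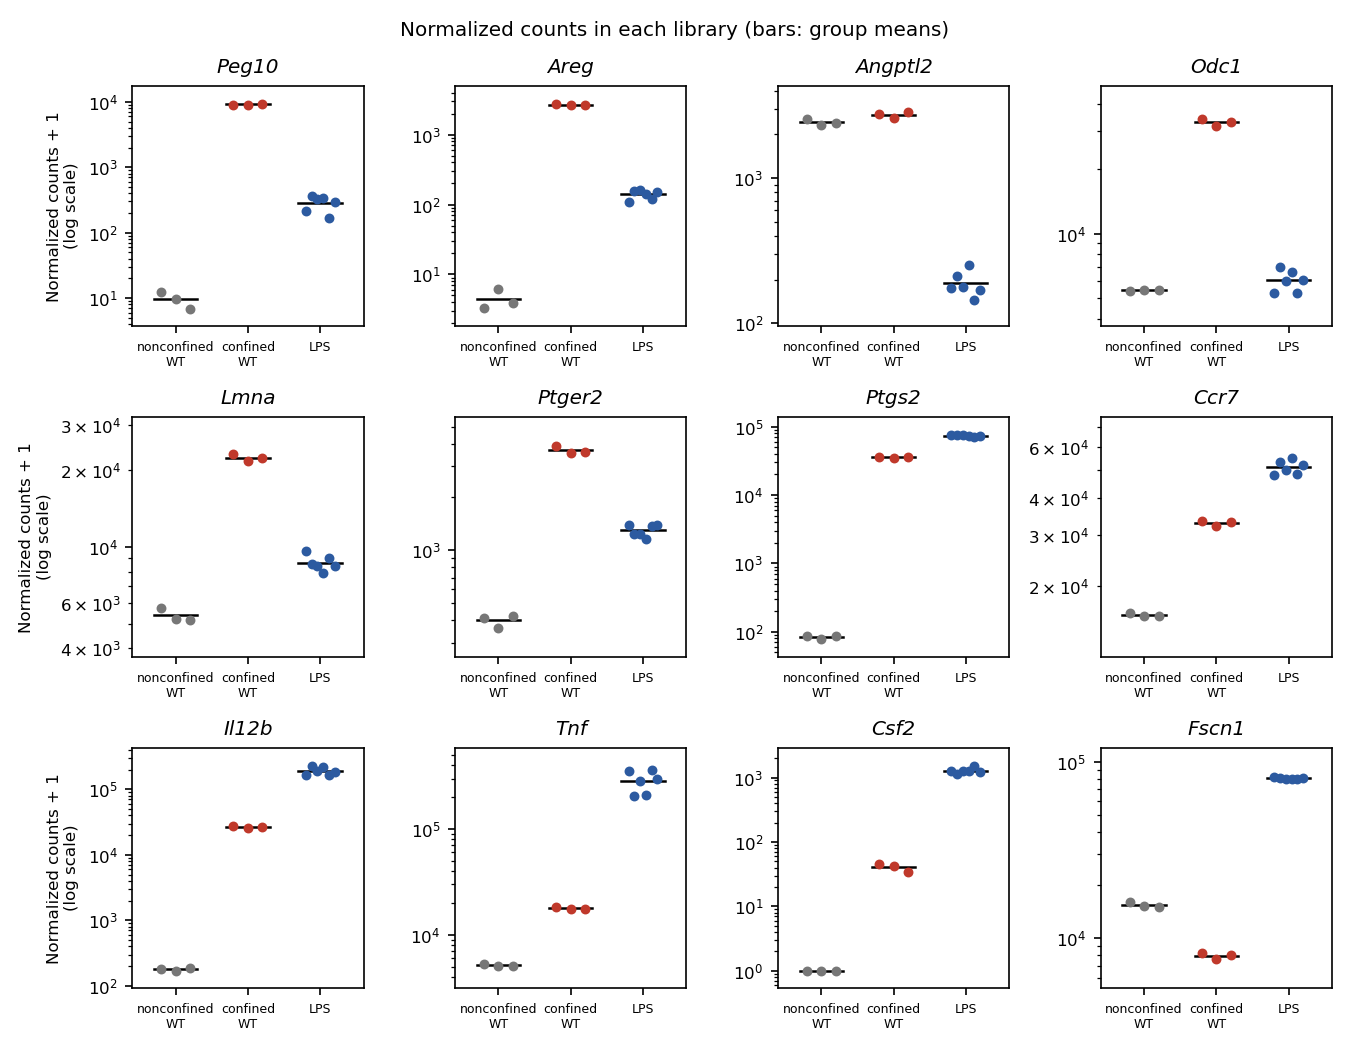
Normalized counts + 1 (vertical axis, log scale) of 12 genes in each library; points are the 3 nonconfined cPLA_2_ WT, the 3 confined cPLA_2_ WT and the 6 LPS libraries, and bars are group means. *Peg10* and *Areg* are highest in confined libraries, *Il12b*, *Tnf* and *Csf2* in LPS libraries, and *Angptl2* is low only in LPS libraries.

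At the other end, the 12 abundant genes with a symbol lowest against LPS cells were *Ccl1*, *Lox*, *Slc1a2*, *Csf2*, *Marco*, *Ak4*, *Igsf9*, *Tnf*, *Il12a*, *Apol7c*, *Ccl3* and *Ccl22*, from -6.09 to -3.36. *Ccl1* (GSMG0009692, chromosome 11 of GRCm39 from 82067485 to 82196516, minus strand), a CC chemokine and ligand of CCR8, stood at 40.6, 47.2 and 52.1 normalized counts in confined libraries and at 2545 to 3891, median 3414, in LPS libraries, 69.7-fold higher in the latter (log2 fold change -6.09 with a standard error of 0.21, adjusted p = 6.1e-16). Nonconfined cells averaged 8.6, so *Ccl1* was low in both groups without LPS. *Lox*, which encodes the collagen cross-linking enzyme lysyl oxidase, stood at 39.6, 39.4 and 50.9 and *Slc1a2*, a glutamate transporter, at 43.5, 21.4 and 28.4 in the confined libraries. Their LPS libraries ranged from 1417 to 1958 and from 1050 to 1176, and their log2 fold changes were -5.26 and -5.16. *Marco*, a scavenger receptor for bacteria, was at 594, 561 and 500 in confined libraries against 9157 to 11519 in LPS libraries (log2 fold change -4.23 with a standard error of 0.07, adjusted p = 1.01e-20). The mitochondrial adenylate kinase gene *Ak4* and the cell adhesion gene *Igsf9* had log2 fold changes of -4.02 and -3.99, again with every confined library below every LPS library.

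Cytokines that steer T cells were among the most uneven groups. Of 11 T cell-polarizing cytokine genes tested, 0 were higher and 8 lower in confined cells (6 lower with the same total per library), with a median log2 fold change of -1.34 beside -0.01 for all genes. *Il12b* (GSMG0007243, chromosome 11 of GRCm39 from 44290888 to 44305504, plus strand), which encodes the p40 chain shared by interleukins 12 and 23, stood at 27234, 25842 and 26344 normalized counts in confined libraries. The LPS libraries held 163396 to 228621, median 186604, 7.24-fold more (log2 fold change -2.85 with a standard error of 0.09, adjusted p = 2.68e-16), and nonconfined cells averaged 178. Confined cells were therefore far above untreated cells in this gene and far below LPS cells, with no overlap. The partner chain of interleukin 12, encoded by *Il12a*, stayed at 117, 84.9 and 67.5 in confined libraries against 1048 to 1722 in LPS libraries (log2 fold change -3.96, adjusted p = 5.88e-08). *Il27*, *Il23a* and *Ebi3*, which encode further chains of this cytokine family, had log2 fold changes of -2.70, -1.56 and -1.06. *Il15*, a survival factor for natural killer and memory T cells, was lower by 1.18, and *Il2*, the T cell growth factor, by 1.74 at few counts (25.1, 30.9 and 16.6 in confined, 55.2 to 98.9 in LPS libraries, 0 in nonconfined cells).

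Of 18 inflammatory and regulatory cytokine genes, 1 was higher, *Areg*, and 5 were lower, with a median of -0.32 that came to -0.03 with the same total per library. *Tnf* (GSMG0024676, chromosome 17 of GRCm39 from 35418343 to 35420984, minus strand), which encodes tumour necrosis factor, stood at 18277, 17340 and 17701 normalized counts in confined libraries and at 206871 to 362627, median 290221, in LPS libraries (log2 fold change -3.97 with a standard error of 0.13, adjusted p = 2.68e-16), beside 5146 in nonconfined cells. *Csf2*, the gene of granulocyte-macrophage colony-stimulating factor, had 44.4, 41.2 and 33.2 in confined and 1119 to 1531 in LPS libraries, and 0 in nonconfined cells. *Il1a* was lower by 2.37, *Il6* by 1.65 and *Il1b* by 1.27; the latter 2, named after their values were seen, complete the 5. *Il10*, an anti-inflammatory cytokine, did not pass the test, with 1466, 1454 and 1558 in confined and 1974 to 2405 in LPS libraries (log2 fold change -0.52 with a standard error of 0.31, adjusted p = 0.173).

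Chemokine genes of the CC class were lower in confined cells in 10 of 15 tested and higher in 0, with a median of -2.17. *Ccl22* (GSMG0053850, chromosome 8 of GRCm39 from 95472218 to 95478327, plus strand), a ligand of CCR4 made by mature DCs, stood at 74887, 71370 and 72314 in confined libraries and at 725970 to 773559, median 752834, in LPS libraries (log2 fold change -3.36 with a standard error of 0.04, adjusted p = 6.09e-24). Nonconfined cells averaged 55663, so the confined level was near the untreated level. *Ccl3*, an inflammatory chemokine, was lower by 3.66, at 2802, 2763 and 2763 against 27569 to 44336. In the CXC and CX3C class, 1 of 11 was higher and 6 lower (1 and 4 with the same total per library), with a median of -1.15. The neutrophil attractants *Cxcl1*, *Cxcl2* and *Cxcl3* were lower by 2.76, 2.88 and 2.42. The exception was *Cxcl11*, a ligand of CXCR3, at 2356, 2163 and 2184 in confined libraries against 421 to 599, median 455, in LPS libraries and 1.02 on average in nonconfined cells (log2 fold change 2.25 with a standard error of 0.32, adjusted p = 4.78e-06). *Cxcl10*, which binds the same receptor, went the other way by -0.65, at 44120, 42419 and 42869 against 59287 to 77050, and was below the fold threshold.

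Chemokine receptor genes divided, with 2 of 16 higher, 4 lower and a median of -0.11 that became 0.17, with 4 higher and 3 lower, at the same total per library. *Ccr7* (GSMG0009949, chromosome 11 of GRCm39 from 99035025 to 99045904, minus strand) stood at 33397, 32199 and 33237 normalized counts in confined libraries and at 47815 to 54853, median 51077, in LPS libraries, beside 15884 in nonconfined cells. Confined cells were lower by 0.63 (standard error 0.04, adjusted p = 3.7e-11), which passes the adjusted p and not the fold threshold, and no libraries overlapped. *Ccr2*, a receptor of inflammatory CC chemokines, was higher by 1.05, and *Ccrl2*, a receptor for chemerin, was lower by 1.08. For *Ccr2* the nonconfined mean, 2080, lay above the 959, 917 and 904 of the confined and the 242 to 759 of the LPS libraries. Its call ended without LPS_WT replicate 1 (0.83) or LPS_KO replicate 2 (0.87), and against the 2 LPS libraries nearly without *Ddx3y* it was 0.32 (adjusted p = 0.179).

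Of 30 genes of the program that mature, migrating DCs share, 17 were lower in confined cells (13 with the same total per library) and 0 higher, with a median of -1.08, and 28 were lower by adjusted p alone. *Fscn1* (GSMG0041377, chromosome 5 of GRCm39 from 142946110 to 142958944, plus strand), which encodes the actin-bundling protein fascin of DC dendrites, stood at 8264, 7633 and 8008 in confined libraries and at 79322 to 81554, median 80124, in LPS libraries (log2 fold change -3.33 with a standard error of 0.03, adjusted p = 2.33e-24). Its nonconfined mean was 15442, above each confined library. *Apol7c*, a member of the apolipoprotein L family, was lower by 3.74, at 9747, 8766 and 9412 against 105987 to 144218, with 7885 on average in nonconfined cells. *Socs2*, a suppressor of cytokine signalling, was lower by 1.33.

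Co-stimulatory and co-inhibitory ligands went both ways, with 3 of 19 higher and 8 lower, or 3 and 5 with the same total per library. *Cd80* did not differ detectably in the fit used here, at 8800, 8789 and 8697 in confined and 7969 to 10003 in LPS libraries, which overlapped (log2 fold change -0.02 with a standard error of 0.06, adjusted p = 0.756), but was higher by 0.26 (adjusted p = 0.00161) with the same total per library; nonconfined cells averaged 2291, below both. *Cd86* was lower by 0.57, short of the fold threshold, at 8168, 8350 and 8241 against 11454 to 12645. *Cd40*, which receives help from T cells, was lower by 2.48, with 4930, 4801 and 5040 in confined libraries, 25947 to 28428 in LPS libraries and 452 on average in nonconfined cells. *Cd70* and *Tnfsf15*, ligands of the tumour necrosis factor family, were lower by 2.72 and 2.64, and *Tnfsf4* (OX40 ligand) differed by -0.89, below the fold threshold, which it passed without LPS_KO replicate 2. *Tnfsf14*, also known as LIGHT, was higher by 2.56, at 1964, 1895 and 1849 in confined libraries against 250 to 391 in LPS libraries. *Havcr2*, the gene of the inhibitory receptor TIM-3, was higher by 1.68. *Tnfsf18* was not tested, since it had too few counts (4.58 to 11.4 in LPS libraries).

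In MHC class I presentation 23 of 23 genes were lower by adjusted p alone and 9 passed the fold threshold as well, with a median of -0.91, or -0.62 and 1 gene past the threshold with the same total per library, where 21 genes were lower and 1 higher by adjusted p alone. *H2-Q7*, a nonclassical class I molecule, was lower by 1.51, *Psme2*, a proteasome activator subunit, by 1.26, and *Nlrc5*, the transactivator of class I genes, by 1.25. *H2-K1* and the entry that merges H2-D1 with H2-L differed by -0.37 and -0.62. In the class II list, 2 of 15 were lower, *H2-Eb2* by 2.37 and the class II transactivator *Ciita* by 1.51, and 0 were higher. *Ciita* stood at 4304, 4206 and 4319 in confined and 11455 to 13909 in LPS libraries, and at 8714 on average in nonconfined cells, between the groups. *H2-Aa* and *H2-Ab1* differed by -0.51 and -0.59, below the fold threshold.

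Interferon-stimulated genes were lower in confined cells in 38 of 59 tested, and 57 were lower by adjusted p alone, and *Cxcl11* was the 1 that was higher. Their median was -1.20, and with the same total per library it was -0.91 with 19 lower. *Zbp1*, a sensor of left-handed nucleic acids, stood at 3658, 3601 and 3774 in confined libraries and at 14157 to 16390 in LPS libraries, beside 2557 in nonconfined cells (log2 fold change -2.05 with a standard error of 0.04, adjusted p = 1.96e-19). *Oasl2* and *Iigp1*, antiviral and antiparasitic effectors, were lower by 1.91 and 1.81. Among the transcription factors of this response, *Irf7* and *Irf8* were lower by 1.68 and 1.69. *Irf1* differed by -0.65, below the fold threshold. *Stat3* differed by -0.08 (adjusted p = 0.326) with libraries overlapping, and by 0.21 (adjusted p = 0.0112) with the same total per library. In the list of interferon regulatory factors, JAK, STAT and SOCS genes, 5 of 27 were lower and 0 higher, with a median of -0.36, or 3 lower with the same total per library; *Stat5a*, which relays signals of granulocyte-macrophage colony-stimulating factor, was lower by 1.01. Without confined replicate 2, *Stat5a* (-0.98) fell short of the fold threshold and 3 of the list were lower; *Stat5a* also fell short without LPS_WT replicate 2 or LPS_KO replicate 1 (-0.99 each), and with TMM scaling (-0.98), edgeR (-0.94) and DESeq2 (-0.97). *Ifnb1*, which encodes interferon beta and was named after its values were seen, did not pass the test at 105, 92.6 and 103 against 134 to 167 (log2 fold change -0.54, adjusted p = 0.222), beside a nonconfined mean of 4.69.

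NF-kB subunits, inhibitors and feedback genes had 1 of 34 higher and 5 lower, with a median of -0.59; with the same total per library it was 1 higher and 1 lower, with a median of -0.30. *Zc3h12c*, a ribonuclease of cytokine mRNAs, was lower by 2.03, the kinase gene *Ikbke* by 1.24 and the Toll-like receptor inhibitor *Irak3* by 1.16, and *Zfp36l2*, an mRNA decay factor, was higher by 1.21. *Ikbkb*, the kinase IKKβ, and *Zc3h12a* (regnase-1) differed by -0.94 and -0.93, just below the fold threshold. Of 22 Toll-like receptors and adaptors, 2 were higher and 4 lower, with a median of -0.34 (4 and 2 with the same total per library); without LPS_KO replicate 3 or confined replicate 3, 1 was higher. *Tlr1* was lower by 2.32 and the adaptor *Ticam2* by 1.28, while *Cd14*, the coreceptor of LPS, stood at 136116, 129232 and 129184 in confined and 77902 to 96073 in LPS libraries, 0.62 above, and at only 1899 on average in nonconfined cells. Lectin and scavenger receptors had 3 of 20 higher and 3 lower, and their median of -0.21 became 0.08 with the same total per library. Within that list *Clec7a*, the receptor dectin-1, was higher by 1.40 at 8523, 8084 and 8100 against 2993 to 3238. *Ly75*, the antigen-uptake receptor DEC-205, and *Clec4a1* were lower by 2.08 and 2.39.

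Immediate early factors and MAPK phosphatases had 5 of 34 genes higher and 5 lower, with a median of -0.24 that became 0.05, with 8 higher and 3 lower, at the same total per library. *Fos*, a subunit of the transcription factor AP-1, stood at 3940, 3658 and 3829 normalized counts in confined libraries and 661 to 896, median 731, in LPS libraries (log2 fold change 2.33 with a standard error of 0.07, adjusted p = 2.28e-16), beside 1003 in nonconfined cells. *Fosb*, another AP-1 subunit, was higher by 2.19 and *Klf4*, a zinc-finger factor, by 1.48. In the opposite direction, the AP-1 subunit *Fosl1* was lower by 1.53, the phosphatase *Dusp4* by 1.47 and *Egr1* by 1.38. Members of the same factor family thus stood on both sides, and in *Klf4* and *Egr1* the nonconfined means, 680 and 3744, were above the mean of the LPS libraries.

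Prostanoid and leukotriene genes had 7 of 25 higher and 2 lower (8 and 1 with the same total per library), with a median of 0.32 beside -0.01 for all genes, and 15 were higher by adjusted p alone. With the same total per library, the median was 0.61 beside 0.27 for all genes, and 17 were higher by adjusted p alone. *Ptger2*, which encodes the prostaglandin E2 receptor EP2, stood at 3896, 3567 and 3604 in confined libraries and at 1164 to 1393, median 1306, in LPS libraries (log2 fold change 1.51 with a standard error of 0.07, adjusted p = 5.43e-14), beside 399 in nonconfined cells. *Ptger4*, which encodes the receptor EP4 for the same ligand, had the opposite order, with 958, 952 and 877 in confined and 2732 to 2938 in LPS libraries (log2 fold change -1.61, adjusted p = 1.17e-14). In the same list, *Crem*, a cAMP-responsive transcription factor, was higher by 2.31 at 1151, 1047 and 1033 against 187 to 243 and *Pde4d*, a cAMP phosphodiesterase, by 1.45, while its relative *Pde4b* differed by -0.06 and was not called. *Ptgs2* (GSMG0000968, chromosome 1 of GRCm39 from 149975782 to 149983985, plus strand), the inducible cyclooxygenase, stood at 36417, 35339 and 36222 in confined libraries and 71446 to 75469 in LPS libraries, lower by 1.03 (short of the fold threshold with edgeR, at -0.96, and with DESeq2), but at only 81.9 on average in nonconfined cells. *Ptges*, the inducible prostaglandin E synthase, overlapped between groups at 5788, 5302 and 5489 against 5493 to 8887 (log2 fold change -0.39, adjusted p = 0.00787). *Pla2g4a* (GSMG0002495, chromosome 1 of GRCm39 from 149705372 to 149837041, minus strand) was at 1369, 1430 and 1321 in confined libraries, 0.44 above the 967 to 1065 of the LPS libraries (standard error 0.05, adjusted p = 2.5e-07) and below the fold threshold. *Alox5*, the 5-lipoxygenase gene, differed by 0.33 between the groups and stood far higher in nonconfined cells, at 17343 on average against 5751, 5244 and 5372 in confined libraries. Called members outside the naming rule, added after their values were seen, are *Ptgs1* (1.43), *Ptger3* (1.16), *Ltb4r1* (1.17) and *Cysltr2* (1.09), all higher in confined than in LPS libraries; for *Ptgs1* the nonconfined mean, 13000, was above both groups. The calls of *Ptger3* and *Cysltr2* ended without confined replicate 1 (1.00) and without confined replicate 3 (0.98), and both ended against the LPS_WT libraries only (0.87 and 0.98) and that of *Ptger3* with 5 in place of 1 added to each count (0.98).

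**Figure D3:**
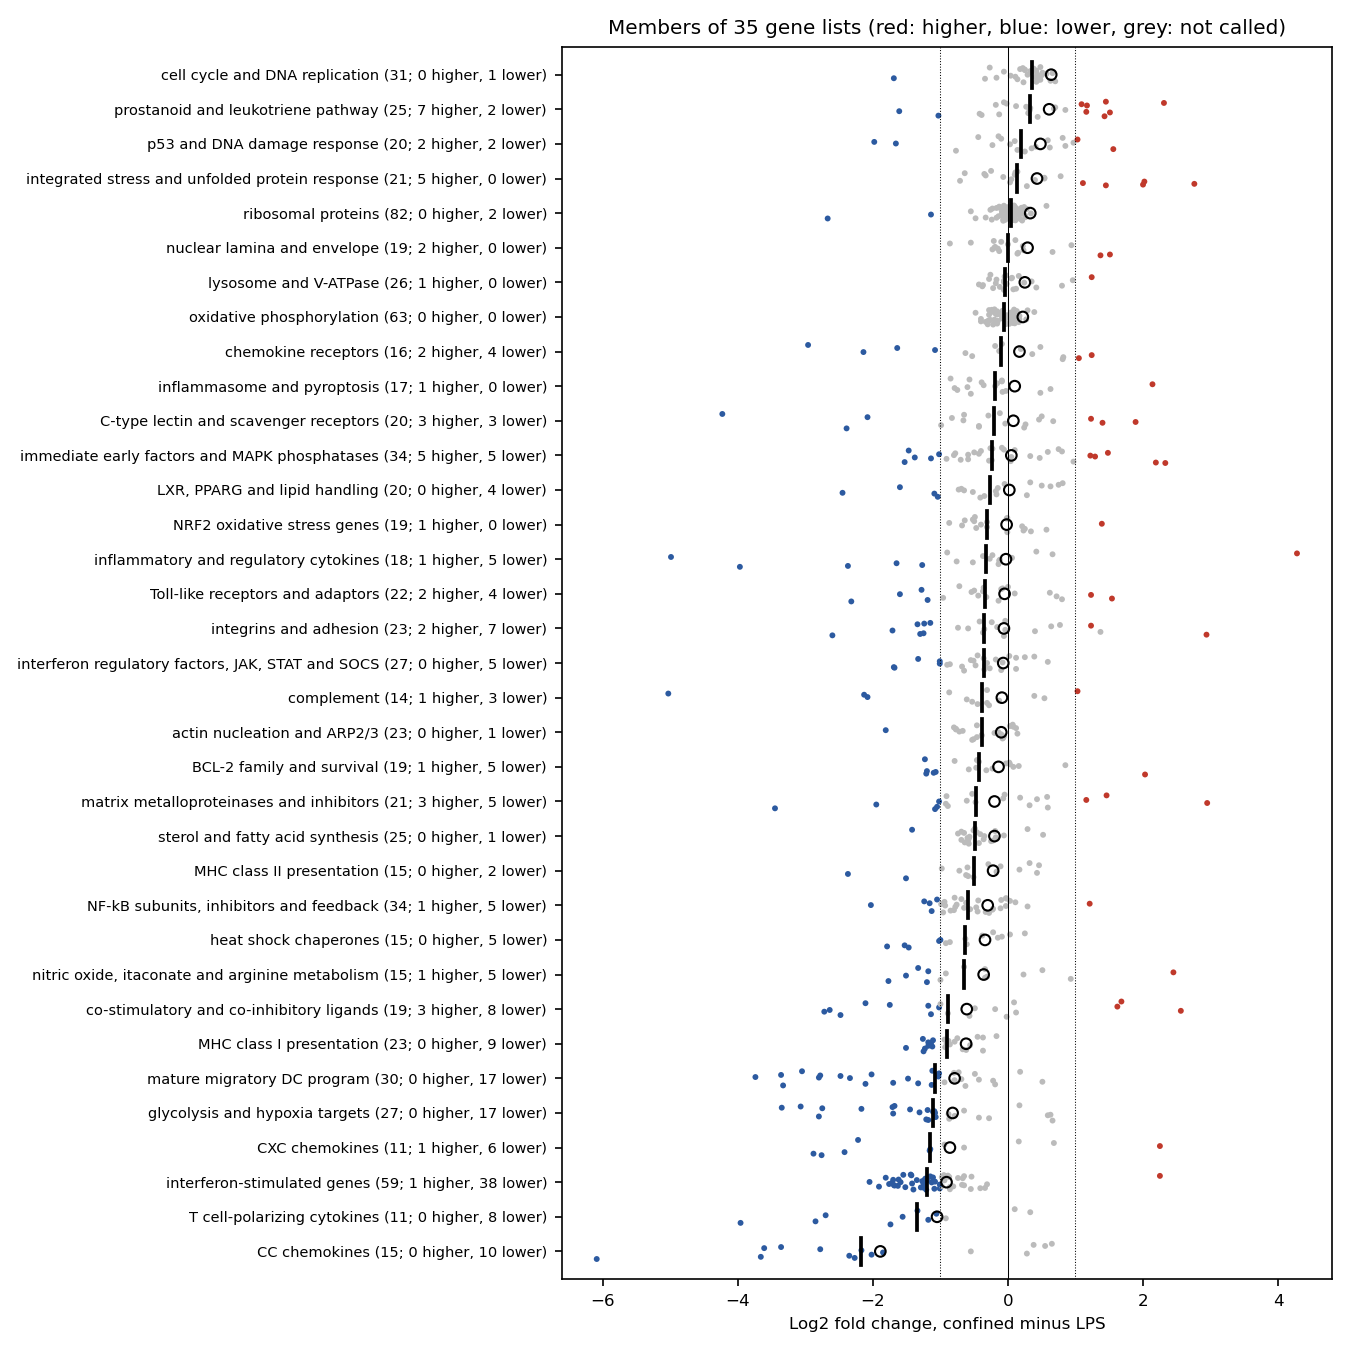
Log2 fold change (confined minus LPS, horizontal axis) of each tested member of 35 pathway gene lists (rows, with the number tested and the numbers higher and lower); points are genes, black bars are list medians, open circles are the medians with the same total per library, and the vertical lines mark 0 and the thresholds of 1 and -1.

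Glycolysis and hypoxia targets were lower in confined cells in 17 of 27 tested and higher in 0, with a median of -1.11, or -0.82 with 10 lower at the same total per library. *Egln3*, an oxygen-sensing hydroxylase, stood at 1133, 1140 and 1251 in confined and 8956 to 16266, median 12055, in LPS libraries (log2 fold change -3.35 with a standard error of 0.14, adjusted p = 2.02e-14), beside 617 in nonconfined cells. *Pfkl*, a phosphofructokinase subunit of glycolysis, stood at 3405, 3331 and 3159 against 18932 to 28228 and at 3673 on average in nonconfined cells, so the confined level was near the untreated level. *Ankrd37*, a hypoxia-responsive gene, was lower by 3.07. *Hif1a*, which encodes the oxygen-regulated factor that drives many of these genes, was above LPS libraries by 0.66, short of the fold threshold, at 20887, 20343 and 20347 against 11810 to 14416; it was named after its values were seen.

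Genes of nitric oxide, itaconate and arginine metabolism had 1 of 15 higher, *Odc1*, and 5 lower (2 and 3 with the same total per library); without LPS_WT replicate 1 or LPS_KO replicate 2, 2 were higher. *Acod1*, which makes itaconate, stood at 65492, 62048 and 62621 in confined libraries and at 198646 to 236264 in LPS libraries (log2 fold change -1.77, adjusted p = 3.44e-17), and at 3177 on average in nonconfined cells. *Nos2*, the inducible nitric oxide synthase, had a log2 fold change of -1.20, at 14692, 13855 and 14383 against 24107 to 42583, and the cationic amino acid transporter *Slc7a2* was lower by 1.51. *Kynu*, an enzyme of tryptophan breakdown, was lower by 1.33. Sterol and fatty acid synthesis genes had 1 of 25 lower, the desaturase *Scd2*, by 1.42, and 22 lower by adjusted p alone, with a median of -0.49 that was -0.20 at the same total. Genes of LXR, PPARG and lipid handling had 4 of 20 lower and 0 higher (2 lower and 2 higher with the same total per library), among them *Mylip*, which promotes LDL receptor breakdown, by 2.45, *Ch25h*, which makes 25-hydroxycholesterol, by 1.60 and the sterol exporter *Abcg1* by 1.09; the median of -0.26 became 0.02 at the same total.

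The integrated stress and unfolded protein response list had 5 of 21 genes higher and 0 lower, with a median of 0.14. With the same total per library, 6 were higher and the median was 0.43. *Chac1*, which degrades glutathione and is a target of ATF4, stood at 1024, 906 and 874 in confined and 106 to 161, median 141, in LPS libraries (log2 fold change 2.76 with a standard error of 0.13, adjusted p = 1.78e-13), beside 126 in nonconfined cells. *Trib3*, a pseudokinase of the same pathway, was at 1145, 1044 and 1039 against 220 to 334, higher by 2.00. *Ddit4*, an inhibitor of mTORC1, was higher by 2.02 at 11163, 10107 and 10546 against 1831 to 3496. The other called members, *Ddit3* (CHOP) and *Asns* (asparagine synthetase), were higher by 1.45 and 1.11 and were named after their values were seen. *Hspa5*, the ER chaperone BiP, differed by -0.33 in the other direction, below the fold threshold. Heat shock chaperones had 5 of 15 lower and 0 higher (3 lower with the same total per library), with a median of -0.63: *Hspa1b* was lower by 1.79, *Hspa1a* by 1.47 and *Hspa8* by 1.02. Without LPS_WT replicate 2 or LPS_KO replicate 1, *Hspa8* fell short of the fold threshold, and 3 of the list were lower; it also fell short with TMM scaling (-0.99), edgeR (-0.95) and DESeq2 (-0.98).

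In the p53 and DNA damage list, 2 of 20 were higher, *Trp53inp1* by 1.56 and *Gadd45a* by 1.03, and 2 lower, among them the kinase *Plk2* by 1.98; with the same total per library, 5 were higher and 2 lower. Without LPS_WT replicate 2 or LPS_KO replicate 1, *Gadd45a* was at 0.98 and 1 was higher. *Gadd45a* was at 0.99 against the LPS_KO libraries only and at 0.93 against the 4 LPS libraries with more Y-chromosome reads. *Cdkn1a*, the cell cycle inhibitor p21, differed by -0.77, below the fold threshold. The NRF2 list had 1 of 19 higher, *Osgin1*, by 1.39, and 0 lower, and *Fth1*, ferritin heavy chain, overlapped between groups at 912475, 880577 and 900559 against 812824 to 993955 (adjusted p = 0.844; higher by 0.27, adjusted p = 0.000114, with the same total per library).

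Of the lamin genes, *Lmna* and *Lmnb1* were higher in confined cells and *Lmnb2* differed by 0.14 and was not called. *Lmna* (GSMG0035543, chromosome 3 of GRCm39 from 88387476 to 88410659, minus strand), which encodes lamins A and C of the nuclear lamina, stood at 23027, 21591 and 22303 normalized counts in confined libraries and at 7921 to 9583, median 8489, in LPS libraries (log2 fold change 1.37 with a standard error of 0.05, adjusted p = 2.53e-15), with 5386 on average in nonconfined cells. *Lmnb1*, which encodes lamin B1, stood at 12700, 12104 and 11756 against 3973 to 4584 (log2 fold change 1.51), with 6764 in nonconfined cells. For *Lmna* both treated groups were above nonconfined cells, whereas for *Lmnb1* the LPS libraries were below them. *Lmna* and *Lmnb1* were the only 2 of 19 members of the lamina and envelope list called, the median of the list was 0.00 (3 higher and a median of 0.29 with the same total per library), and *Tor1aip1*, an inner membrane protein that binds lamins, differed by -0.86 in the other direction. Actin nucleation and ARP2/3 genes had 0 of 23 higher and 1 lower, *Arpin*, an inhibitor of the ARP2/3 complex, by 1.81 at 70.5, 87.5 and 48.6 against 184 to 302; without confined replicate 1, 2 were lower. The ARP2/3 subunits *Actr2* and *Actr3* differed by -0.53 and -0.51, below the fold threshold.

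Adhesion genes had 2 of 23 higher and 7 lower, or 3 and 4 with the same total per library: *Itgb5*, the integrin β5 chain, was higher by 1.23, and *Itgal* and *Itga4*, chains of LFA-1 and of VLA-4, had log2 fold changes of -1.71 and -1.30. *Itgb8* was lower by 1.34, at 119, 135 and 163 against 280 to 404. *Itgam*, which encodes CD11b, overlapped at 48157, 47091 and 48251 against 47299 to 50685 (adjusted p = 0.469; higher by 0.25, adjusted p = 1.68e-05, with the same total per library). Of 21 matrix metalloproteinases, related proteases and inhibitors, 3 were higher and 5 lower, or 3 and 2 with the same total per library. The inhibitor *Timp1* and the plasminogen activator *Plau* were higher by 1.16 and 1.46, like *Mmp19*, whereas *Mmp13*, *Mmp2* and *Mmp9* were lower by 1.95, 1.08 and 1.05. The LPS libraries spread widely for *Mmp9* (443 to 1229), whose call ended without LPS_WT replicate 1 (-0.91) or LPS_KO replicate 2 (-0.89). Against the 2 LPS libraries nearly without *Ddx3y*, *Mmp9* was at -0.30, *Mmp2* at -0.88, *Timp1* at 0.76 and *Itgb5* at 0.98.

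Survival genes of the BCL-2 family had 1 of 19 higher and 5 lower, but 2 higher and 0 lower with the same total per library. *Bcl2* itself stood at 1755, 1647 and 1761 in confined and 399 to 451 in LPS libraries (log2 fold change 2.03 with a standard error of 0.05, adjusted p = 1.13e-17), below the nonconfined mean of 2961. Its relatives *Bcl2l1* and *Bcl2a1d* had log2 fold changes of -1.21 and -1.20, and *Cflar*, an inhibitor of death receptor signalling, of -1.23; *Bcl2a1d* and *Bcl2a1b* are near-identical copies, so reads may be shared between them. Of 17 inflammasome and pyroptosis genes, *Gsdme*, which encodes a gasdermin, was the 1 called, higher by 2.14, and *Nlrp3* differed by -0.55; the median was -0.19, or 0.10 with the same total per library. Of 14 complement genes 1 was higher and 3 were lower, with 0 higher without LPS_WT replicate 1, LPS_KO replicate 2 or confined replicates 2 or 3, and complement factor B, *Cfb*, was lower by 2.08. Cell cycle and DNA replication genes had 0 of 31 higher and 1 lower, *Ccnd2* (cyclin D2), by 1.69, but 23 were higher by adjusted p alone, with a median of 0.35. With the same total per library, 26 of them were higher by adjusted p alone and the median was 0.64. *Top2a*, a topoisomerase of dividing cells, stood at 11630, 12285 and 11935 against 7467 to 10253, and at 20612 on average in nonconfined cells, above both.

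Housekeeping groups moved little: 0 of 82 ribosomal protein genes were higher and 2 lower (1 without confined replicate 3), with a median of 0.04, 0 of 63 oxidative phosphorylation genes were called, with a median of -0.06, and 1 of 26 lysosome and V-ATPase genes was higher, *Atp6v0d2* by 1.24, with a median of -0.04. With the same total per library 1 ribosomal protein gene was lower and 3 lysosome and V-ATPase genes were higher, and these medians were 0.33, 0.22 and 0.25, near the shift of 0.29 of all genes.

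Markers of cells other than DCs differed too. In bulk RNA, fewer cells of a type and less RNA per cell cannot be told apart. Of 15 neutrophil markers, 9 were lower and 0 higher in confined cells (6 lower with the same total per library). Summed, they came to 207044, 197349 and 195758 normalized counts in confined libraries, to 417516, 378747 and 394114 in the LPS libraries labelled cPLA_2_ WT and to 369552, 425736 and 398243 in those labelled cPLA_2_ KO, with 278450 on average in nonconfined cells. The gene with the most counts, *S100a9*, was lower by 1.01, *Lcn2* by 1.40, and none was at 0 in all 9 libraries. *S100a9* fell short of the threshold without LPS_WT replicate 1, LPS_KO replicate 2 or confined replicates 2 or 3, and with TMM scaling (-0.98), edgeR (-0.94) and DESeq2 (-0.97). Of 9 eosinophil markers, 7 were lower and 0 higher (1 higher with the same total per library). Their sums were 9940, 9439 and 9318 in confined libraries, 48039, 27896 and 38562 and then 27890, 48274 and 39142 under the LPS labels in the same order, and 33845 on average in nonconfined cells. The gene with the most counts, *Prg2*, stood at 4157, 3865 and 3858 against 14646 to 24790, and *Epx*, eosinophil peroxidase, was lower by 2.71.

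Mast cell and basophil markers had 6 of 10 lower and 0 higher (5 lower with the same total per library), with sums from 16371 to 17022 in confined and from 19559 to 22051 in LPS libraries. *Hdc* had the most counts, 0.19 above LPS libraries and overlapping with them, and *Cpa3* was lower by 1.19; *Mcpt4* was at 0. Plasmacytoid DC markers had 3 of 5 lower (2 with the same total per library), with the largest share from *Tcf4* (lower by 1.16), with sums of 839 to 866 against 1553 to 2288. Lymphocyte markers came to only 197 to 220 normalized counts in confined and 240 to 292 in LPS libraries, with the largest share from *Lck* and 5 of 9 lower (4 with the same total per library). Erythroid markers had 1 of 2 lower, the defining gene *Alas2* at 0, and sums of 63 to 90 against 129 to 187, most of it from the merged entry *Hbb-b2 // Hbb-bt* (-0.94, and past the threshold at -1.03 without LPS_WT replicate 1 or -1.07 without confined replicate 3). Macrophage markers had 1 of 10 higher and 0 lower (1 without LPS_WT replicate 2 or LPS_KO replicate 1), with a median of -0.28, or 0.01 with the same total per library. The part of these cells in the differences between the groups was not tested.

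Promoter sequences of RefSeq (GRCm38.p6, 250 bases before to 50 bases after a gene's start) were available for 661 of the 840 higher genes with a symbol (871 windows), for 884 of 1176 lower ones (1101 windows) and for 10980 of 13985 symbols tested (13887 windows). Each window was searched on both strands for short motifs, as a description with no test; matches of different motifs may overlap, and a match is not a proven binding site. The core of the interferon-stimulated response element (GAAA, any pair of bases, GAAA) was in 7.27% of windows of lower genes, 1.38% of higher genes and 3.2% of all tested, and in 50.9% of the 55 windows of the interferon-stimulated list. The AP-1 motif TGAGTCA was in 8.15% of windows of higher genes, 5.63% of lower genes and 4.06% of all. The kB-type motif (GGGA, any base, TTTCC) was in 0.344%, 1.09% and 0.504% in the same order. The cAMP response element TGACGTCA was in 2.41%, 1.63% and 2.92%, the E-box CACGTG in 6.43%, 6.36% and 9.62%, and the STAT motif TTCNNNGAA in 5.86%, 7.45% and 6.98%. The heat shock element was in 0.689%, 0.454% and 0.504%, and in 26.7% of the 15 windows of the heat shock chaperone list.

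The neutrophil attractants *Cxcl1*, *Cxcl2* and *Cxcl3*, neighbours on chromosome 5 that were lower together, each hold a kB-type match near a TATA-like stretch. The stretches before their starts, chr5:90891124-90891233, chr5:90903752-90903861 and chr5:90785978-90786087 of GRCm38.p6 on the plus strand, are shown because the 3 matches are identical, and capitals mark the match.
Cxcl1: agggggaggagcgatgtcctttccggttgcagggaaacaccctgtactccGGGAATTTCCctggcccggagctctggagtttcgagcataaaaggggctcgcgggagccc
Cxcl2: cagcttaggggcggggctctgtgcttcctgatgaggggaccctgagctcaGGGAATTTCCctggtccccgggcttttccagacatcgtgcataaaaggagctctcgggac
Cxcl3: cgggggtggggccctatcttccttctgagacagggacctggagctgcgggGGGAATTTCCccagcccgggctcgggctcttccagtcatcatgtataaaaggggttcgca
Of the genes with large changes, *Apol7c*, which was lower, holds overlapping matches of the interferon-stimulated response element core, at chr15:77533316-77533414 on the minus strand. Among the higher genes, *Areg* holds a cAMP response element at chr5:91139488-91139595 on the plus strand, and *Sdcbp2* and *Tnfsf14* hold an AP-1 match at chr2:151572529-151572622 on the plus and chr17:57194285-57194391 on the minus strand. They are shown, with matches in capitals, as the leading genes of either direction whose windows hold these letters.
Apol7c: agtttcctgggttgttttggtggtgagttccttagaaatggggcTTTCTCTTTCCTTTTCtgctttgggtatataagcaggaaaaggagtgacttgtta
Areg: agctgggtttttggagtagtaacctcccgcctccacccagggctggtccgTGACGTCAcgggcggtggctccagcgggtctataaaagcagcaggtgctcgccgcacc
Sdcbp2: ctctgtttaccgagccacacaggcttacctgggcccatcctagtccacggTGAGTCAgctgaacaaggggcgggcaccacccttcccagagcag
Tnfsf14: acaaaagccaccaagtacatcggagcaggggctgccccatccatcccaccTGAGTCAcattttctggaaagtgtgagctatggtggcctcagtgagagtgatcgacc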

How the data were processed

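The authors deposited gene-level signal values, made by mapping reads with STAR 2.7.5a to mm39, counting with featureCounts 1.5.0 on the FAST DB annotation and dividing by DESeq2 size factors. Multiplied by 1 factor per library, 100% of the values were whole reads (tolerance 1e-06). Values were fitted as log2(normalized count + 1) with limma 3.58.1 (trend) in R 4.3.3, with a mean for each of the 6 groups of 18 libraries, and the contrast was confined cPLA_2_ WT minus the average of both LPS groups. P-values were adjusted over all 17875 genes by the Benjamini-Hochberg method. Replicate numbers did not pair the libraries (residual correlations of -0.14 to 0 for LPS and confined libraries with the same number). On recovered reads, edgeR 4.0.16 (quasi-likelihood) called 1486 higher and 1272 lower genes, and DESeq2 1.42.0 called 1423 and 1352. Tested on simulated data, the fit recovered 200 of 200 changed genes with 2 false calls. The planted changes were well beyond the fold threshold and lay in genes well above the filter. The test therefore does not measure errors near the threshold, at low counts or from the difference in library totals. The members and the 43 gene lists were chosen with earlier results of these data known. Named genes were taken from the 12 with the largest change in each direction among called genes with a symbol that average 500 normalized counts or more with the groups apart in every library; up to 3 called members in each direction of each pathway list with a mean of at least 100, with the list's most abundant member; and genes of the study's subject, of the label check and the leading members of the cell type marker lists, whatever their values. Figures were drawn with matplotlib 3.10.9.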

Additional observations from a re-analysis of the deposited data

Results flagged for a closer look

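Among the 6 LPS libraries, a gap between 1 library and the nearest other beyond Dixon's 95% critical share of the range of all 6 occurred in 5 of 191 groups of values examined; chance gives about 1 in 20. *Actr2* stood at 60823 normalized counts in LPS_WT replicate 2 and at 58516 to 59235 in the others (gap of 0.688 of the range). *Cd70* stood at 1082 in LPS_KO replicate 1 and at 921 to 960 in the others (0.758). *Clec4a1* stood at 3138 in LPS_WT replicate 1 and at 3471 to 3593 in the others (0.732). *Cxcl11* stood at 599 in LPS_KO replicate 1 and at 421 to 475 in the others (0.697). *Cd163* was at 1.87 in LPS_WT replicate 3 and at 0 in the others (1.0), which is below the 3 counts that set the floor.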

How the results depend on the processing

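The count of genes higher in confined cells, 1245, came to 2118 with the same total per library, 552 with a filter of 100 normalized counts, 2490 with the thresholds of the Methods (unadjusted p of at most 0.05 and a fold change of at least 1.5) and 4383 with the adjusted p alone; the count of lower genes, 1402, came to 812, 2488 and 5318 in the last 3 of these. The filter of 100 tests fewer genes and the other thresholds admit smaller changes or larger p, whereas for the same total the cause was not tested. Under the remaining alternatives both counts were within 1.5 times: a replicate block gave 1243 and 1400, and leaving out 1 library gave 1056 to 1342 higher and 1328 to 1414 lower genes. The alternatives on the 2 LPS libraries nearly without Y-chromosome reads, on the 4 with more (1269 and 1400) and on 3 averaged pairs were chosen after seeing the data. The difference in total normalized counts per library, -8829974, was -8828400 against the LPS_WT and -8831547 against the LPS_KO libraries only (exact permutation p = 0.1, the smallest that 3 against 3 allow), and -9201170 to -8508615 without 1 library; with 2 confined libraries the smallest p is 0.0714. Of 4445 values of named genes under an alternative, 4360 kept direction and side of the threshold, 74 fell short of it, 5 newly passed it and 6 changed sign, none in a called gene: with the same total per library *Cd80* was at 0.26, *Fth1* at 0.27, *Itgam* at 0.25, *Pde4b* at 0.23 and *Stat3* at 0.21, and *Hdc* was at -0.04 against the 2 LPS libraries nearly without Y-chromosome reads. The cause was not tested.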

Other observations

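The genes below were chosen after their values were seen. Most are near 0 in 1 of the groups, so the size of their fold change depends on the 1 added to each count, and only counts are given for these. *Fndc4*, which encodes a fibronectin type III domain protein, stood at 175, 143 and 158 normalized counts in the confined libraries, at 0 to 4.85 in LPS libraries and at 2.65 on average in nonconfined cells. *Hid1*, a gene of dense-core granule trafficking, stood at 102, 81.5 and 111 against 1.62 to 7.40, and *Ptprr*, a phosphatase of MAP kinases, at 107, 103 and 75.8 against 0.808 to 8.39. In each of these genes every confined library was above every LPS library.

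In the other direction, *Shisa3*, an inhibitor of WNT and FGF signalling, stood at 5.80, 15.4 and 7.11 in confined libraries, at 503 to 677 in LPS libraries and at 0 in nonconfined cells. *Mgarp*, a mitochondrial protein gene, stood at 9.66, 7.72 and 0 against 187 to 431. The lipid antigen-presenting gene *Cd1d2* stood at 3.87, 0 and 7.11 against 157 to 207. A gene without symbol (GSMG0018559, chromosome 15 of GRCm39 from 77510363 to 77511606), on the same chromosome as *Apol7c*, stood at 560, 605 and 629 against 11890 to 19584 (log2 fold change -4.67, adjusted p = 5.23e-18), beside 758 on average in nonconfined cells. All 4 were without overlap between the groups.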
